A study of Mus musculus with 6 samples.

Results

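The glycerol-3-phosphate shuttle and the malate-aspartate shuttle carry reducing equivalents from cytosolic NADH to the mitochondria. Their 7 enzyme genes, Gpd1, Gpd1l, Gpd2, Mdh1, Mdh2, Got1 and Got2, were chosen by symbol from the 22466 genes with a RefSeq transcript in a transcript table of primary brown adipocytes. Together they had 8 RefSeq rows, 2 of them for Gpd2, and for each gene the row with the highest mean over the cultures was used. All 7 passed the minimum abundance of a mean of 0.5 RPKM over the 6 cultures. RPKM is the number of reads assigned to a transcript, per kilobase of its length and per size of the library, so levels of different genes are compared per length here, as far as their reads could be uniquely identified.

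Brown adipocytes were obtained as precursors from the interscapular brown adipose tissue of male mice of strain 129SvEvS1, aged 5 to 6 weeks, with wildtype (WT) or UCP1(-/-) (Ucp1-KO) genotype. Cultures of both genotypes were induced in the dish and then kept for 7 days in differentiation medium with insulin, the thyroid hormone T3 and rosiglitazone, an activator of PPARγ. The 6 sequenced cultures comprised 3 of WT origin, replicates 10, 11 and 12, and 3 of Ucp1-KO origin, replicates 13, 14 and 15. Ucp1 encodes the uncoupling protein of brown fat, and its loss in these mice is constitutive, so that it affects all cells of the animal and a culture carries it from its isolation onwards. The labels do not tie a culture to an animal, so p-values measure the spread between these cultures only.

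Both shuttles begin with cytosolic NADH, made mainly by glycolysis. In the glycerol-3-phosphate shuttle, a cytosolic dehydrogenase (Gpd1) reduces dihydroxyacetone phosphate to glycerol-3-phosphate, and a flavoprotein on the outer face of the inner mitochondrial membrane (Gpd2) oxidizes it back and feeds the electrons into the respiratory chain. In the malate-aspartate shuttle, cytosolic and mitochondrial malate dehydrogenases (Mdh1, Mdh2) and aspartate aminotransferases (Got1, Got2) work with carriers of the inner membrane to move NADH equivalents into the matrix. Brown adipose tissue is known for a high glycerol-3-phosphate oxidation capacity, and in adipocytes glycerol-3-phosphate is also the backbone for triglyceride synthesis.

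The libraries held 14989604 to 17727650 mapped reads, computed from the RPKM values. The targeted gene Ucp1 was measured at 1775, 981 and 1157 RPKM in the WT and 307, 409 and 398 RPKM in the Ucp1-KO cultures, which did not overlap and in which the disrupted locus still gives a remnant transcript, per the study's description. All 6 adipocyte markers (Adipoq, Fabp4, Plin1, Pparg, Cebpa and Lipe) had a higher mean log2 level in Ucp1-KO (median log2 fold change 0.10). Mostly through Fabp4, they summed to 28670 to 30396 RPKM in WT and 29402 to 31889 RPKM in Ucp1-KO cultures. Of 7 brown adipocyte markers other than Ucp1, 6 had a higher and 1 a lower mean log2 level in Ucp1-KO, with summed levels of 1771 to 2001 RPKM against 1637 to 2669 RPKM. Of 9 preadipocyte and stromal markers, 8 were tested, and all 8 had a lower mean log2 level in Ucp1-KO (the mean RPKM of Ly6a was higher, 122 against 114), with summed levels of 558 to 989 RPKM against 420 to 708 RPKM. All 5 macrophage markers had a higher mean log2 level in Ucp1-KO, with summed levels of 55.4 to 169 RPKM against 41.4 to 803 RPKM, the highest value being that of Ucp1-KO replicate 14. Endothelial markers summed to at most 28.0 RPKM, skeletal muscle markers to at most 10.6 RPKM and liver markers to at most 0.43 RPKM in any culture. The part of these markers in the results below was not tested, and in RNA of whole cultures fewer cells of a type cannot be told apart from less RNA per cell.

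In abundance the shuttle enzymes spanned from one of the most abundant transcripts of the cells to a minor one. Gpd1 had the highest mean over the 6 cultures with 1637 RPKM and ranked 13 among the 28890 RefSeq transcripts in WT and 9 in Ucp1-KO. Both malate dehydrogenases followed with 636 RPKM for Mdh2 and 530 RPKM for Mdh1. Gpd2 with 43.2 RPKM, Got1 with 34.9 RPKM and Got2 with 22.2 RPKM were an order of magnitude lower, and Gpd1l, a close relative of the cytosolic Gpd1, was lowest with 8.80 RPKM. Neighbours in this order did not overlap over the 6 cultures at 3 steps, Gpd1 over Mdh2 (2.57-fold by means), Mdh1 over Gpd2 (12.3-fold) and Got2 over Gpd1l (2.52-fold). The ranges of Mdh2 and Mdh1, of Gpd2 and Got1, and of Got1 and Got2 overlapped. The order turned for 2 pairs, Mdh1 (815 RPKM) being above Mdh2 (636 RPKM) with the highest row of any annotation, and Got2 (38.2 RPKM) above Got1 (34.9 RPKM) per sequence that reads can uniquely identify.

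**Figure D1:**
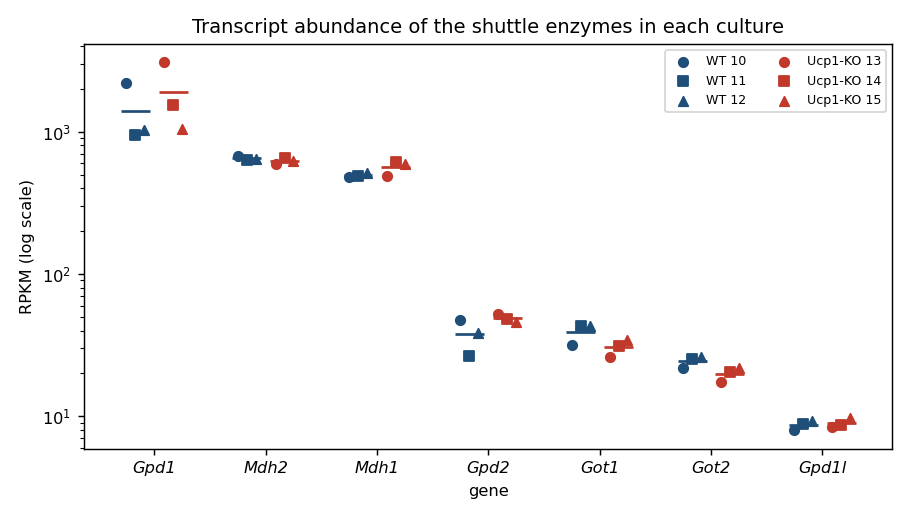
Transcript abundance in RPKM (log axis) of the 7 shuttle enzymes, ordered by their mean over the 6 cultures, with 1 symbol per culture (blue, WT; red, Ucp1-KO) and a line at the mean of each genotype. Gpd1 lies between 953 and 3067 RPKM and Gpd1l between 7.96 and 9.76 RPKM, and the genotypes overlap for every enzyme.

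None of the 7 enzymes differed between WT and Ucp1-KO cultures at an adjusted p under 0.05. The genotypes were compared with limma on log2(RPKM + 1) over all 16865 RefSeq transcripts past the minimum abundance, with Benjamini-Hochberg adjustment over all of them. This scale understates the change of low transcripts. In the same test, 0 of the 16865 transcripts passed (0%), the smallest adjusted p being 0.868. The targeted gene Ucp1 did not pass either (log2 fold change -1.78, unadjusted p = 1.57e-04, adjusted p = 0.868 in limma), so a miss of this threshold does not show equal levels. With DESeq2, the study itself listed differential genes between these genotypes, Ucp1 among them and none of the 7 enzymes. At an unadjusted p under 0.05 were 935 transcripts (5.54%), 388 higher (2.3%) and 547 lower (3.24%) in Ucp1-KO. Of the 7 enzymes, 4 had a higher and 3 a lower mean log2 level in Ucp1-KO, with a median log2 fold change of 0.04 beside -0.0016 over all transcripts tested, and 1 (Got2, lower) had an unadjusted p under 0.05, which it lost under several alternatives given below. Separation of the genotypes without overlap was seen for 0 of the 7 enzymes, beside 1888 of all transcripts tested (11.2%).

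Among the enzymes of the glycerol-3-phosphate shuttle, the cytosolic dehydrogenase Gpd1 (NM_010271, chromosome 15, 99717587 to 99725014, forward strand, GRCm38) was the most variable. Its levels were 2187, 953 and 1029 RPKM in the WT cultures and 3067, 1544 and 1041 RPKM in the Ucp1-KO cultures. One culture of each genotype, WT replicate 10 and Ucp1-KO replicate 13, was far above the others, WT replicate 12 and Ucp1-KO replicate 15 were almost equal, and the genotypes overlapped. Between 0.266% and 0.855% of all mapped reads of a culture, or 43493 to 138014 reads, belonged to this transcript. The mean was 1390 ± 691 RPKM in WT, beside 1884 ± 1055 RPKM in Ucp1-KO cultures (SD, n = 3). The log2 fold change of 0.40 (SE 0.47, 95% confidence interval -0.71 to 1.51) had an adjusted p of 0.910 in limma, and an exact two-sided permutation test gave p = 0.5, where 3 against 3 cultures cannot go below 0.1. Without Ucp1-KO replicate 13 it was -0.02, without WT replicate 10 it was 0.78, and without both the log2 fold change was 0.36.

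Gpd1l (NM_175380, chromosome 9, 114899339 to 114933987, reverse strand) encodes a second cytosolic protein of the Gpd1 type. It was measured at 7.96, 8.80 and 9.19 RPKM in WT and at 8.44, 8.65 and 9.76 RPKM in Ucp1-KO cultures. The cultures were close to each other, with no high level in WT replicate 10 or Ucp1-KO replicate 13. The log2 fold change was 0.04 (SE 0.10, 95% confidence interval -0.20 to 0.28, adjusted p = 0.956 in limma). With 597 to 716 reads per culture it was the least sampled of the shuttle enzymes.

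Gpd2 (NM_010274, chromosome 2, 57237678 to 57370719, forward strand), the mitochondrial dehydrogenase of the shuttle, was measured at 47.5, 26.7 and 38.7 RPKM in WT and at 52.5, 48.1 and 45.7 RPKM in Ucp1-KO cultures. The Ucp1-KO cultures lay close together and WT replicate 11 was lowest, while WT replicate 10 lay among the Ucp1-KO values. The Ucp1-KO mean of 48.8 ± 3.48 RPKM was 130% of the WT mean of 37.6 ± 10.4 RPKM (SD, n = 3). With a log2 fold change of 0.40 (SE 0.20, 95% confidence interval -0.07 to 0.87), the adjusted p was 0.871 in limma and the exact permutation p was 0.2. The WT cultures differed by up to 1.78-fold and the Ucp1-KO cultures by up to 1.15-fold. Without WT replicate 11, the log2 fold change was 0.18.

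The ratio of the cytosolic to the mitochondrial dehydrogenase was high in all cultures. With the higher of the 2 Gpd2 rows, Gpd1 to Gpd2 was 46.0, 35.6 and 26.6 in WT and 58.4, 32.1 and 22.8 in Ucp1-KO cultures. The ratio was above 1 in 6 of 6 cultures, with a mean of 5.13 ± 0.50 on the log2 scale (SD, n = 6, exact two-sided sign-flip p = 0.03125, the smallest that 6 cultures allow, and 0.03125 after adjustment over 4 ratios). With both Gpd2 rows summed, the mean log2 ratio was 4.15. The 2 rows were nearly equal in every culture (47.5 and 46.4 RPKM in WT replicate 10), so this sum may count the same reads 2 times. The ratio was again highest in WT replicate 10 and Ucp1-KO replicate 13. Ucp1-KO minus WT was -0.01 on the log2 scale, with an exact permutation p of 1. Gpd1 to Gpd1l was 275, 108 and 112 in WT and 363, 179 and 107 in Ucp1-KO cultures, above 1 in 6 of 6 (mean log2 ratio 7.40 ± 0.76, adjusted p = 0.03125, exact sign-flip). Its genotype difference of 0.35 on the log2 scale had an exact permutation p of 0.7, and 0.933 after adjustment over the 4 ratios.

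The malate dehydrogenases were abundant and varied little. Mdh1 (NM_008618, chromosome 11, 21556692 to 21571934, reverse strand), the cytosolic enzyme, was measured at 484, 488 and 509 RPKM in WT and at 491, 616 and 593 RPKM in Ucp1-KO cultures. Ucp1-KO replicates 14 and 15 were above all WT cultures and replicate 13 was among them. The log2 fold change was 0.19 (SE 0.12, 95% confidence interval -0.09 to 0.47, adjusted p = 0.876 in limma), with 15517 to 20799 reads per culture.

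Mdh2 (NM_008617, chromosome 5, 135778649 to 135790386, forward strand) encodes the mitochondrial enzyme, which also works in the tricarboxylic acid cycle. Its levels were 678, 628 and 642 RPKM in WT and 595, 648 and 623 RPKM in Ucp1-KO cultures. The genotypes overlapped, and the highest and lowest of all 6 cultures were WT replicate 10 and Ucp1-KO replicate 13. The log2 fold change was -0.06 (SE 0.10, 95% confidence interval -0.29 to 0.17, adjusted p = 0.935 in limma).

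With the RefSeq rows, Mdh1 to Mdh2 was the one ratio whose genotypes did not overlap. It was 0.713, 0.777 and 0.792 in WT and 0.824, 0.951 and 0.951 in Ucp1-KO cultures. Every Ucp1-KO culture was above every WT culture, and Ucp1-KO replicate 13 was nearest to WT. On the log2 scale, the ratio was -0.40 ± 0.08 in WT and -0.14 ± 0.12 in Ucp1-KO (SD, n = 3), a difference of 0.25 with an exact permutation p of 0.1, the smallest this design allows, and 0.4 after adjustment over the 4 ratios. Mdh1 was below Mdh2 in 6 of 6 cultures (mean log2 ratio -0.27 ± 0.17, adjusted p = 0.03125, exact sign-flip), but above it in 6 of 6, with ratios of 1.10 to 1.46, when for each gene the highest row of any annotation was taken in place of the RefSeq row. With those rows, the genotype difference had an adjusted p of 0.2 in the exact permutation test, both for Mdh1 to Mdh2 and for Got1 to Got2.

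**Figure D2:**
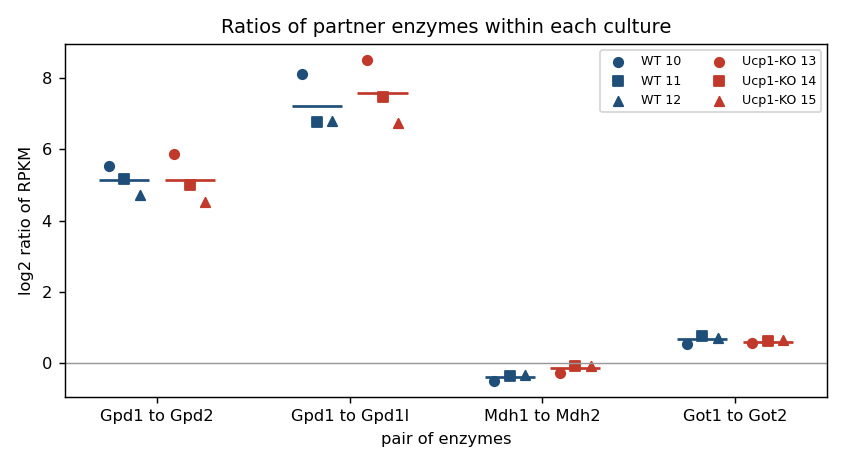
Ratios of partner enzymes within each culture, as log2 of the RPKM ratio, with 1 symbol per culture (blue, WT; red, Ucp1-KO), a line at the mean of each genotype and a grey line where both enzymes are equal. Gpd1 exceeds Gpd2 and Gpd1l in all cultures, and for Mdh1 to Mdh2 the 3 Ucp1-KO cultures lie above the 3 WT cultures.

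The aspartate aminotransferases were the only pair of partner enzymes with a lower mean of both in Ucp1-KO. Got1 (NM_010324, chromosome 19, 43499752 to 43524605, reverse strand) is cytosolic and Got2 (NM_010325, chromosome 8, 95864133 to 95888401, reverse strand) mitochondrial, and both transfer the amino group between aspartate and glutamate. The 250 bases before the start of each gene are shown because these enzymes had the same order of levels over the cultures. They are from RefSeq, build GRCm38.p6, chr19:43524606-43524855 for Got1 and chr8:95888402-95888651 for Got2, both on the reverse strand and printed 5′ to 3′ in the direction of the gene, with matches to CCAAT or its reverse complement ATTGG in capitals.
Got1: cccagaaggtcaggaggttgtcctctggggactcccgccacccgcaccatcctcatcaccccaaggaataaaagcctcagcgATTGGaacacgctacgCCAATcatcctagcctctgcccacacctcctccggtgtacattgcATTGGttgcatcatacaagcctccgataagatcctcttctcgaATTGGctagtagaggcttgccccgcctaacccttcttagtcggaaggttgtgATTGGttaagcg
Got2: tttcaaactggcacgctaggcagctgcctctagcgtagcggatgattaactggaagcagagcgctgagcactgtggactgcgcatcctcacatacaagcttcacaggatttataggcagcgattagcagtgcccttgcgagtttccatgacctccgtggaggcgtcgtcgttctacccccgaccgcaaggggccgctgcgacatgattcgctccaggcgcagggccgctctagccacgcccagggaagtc
Before Got1 there were 5 such matches, before Got2 0. Of 32851 windows of this length in the RefSeq table, 33.8% held at least 1 match and 0.213% at least 5. Windows were in the table for 6 of the 7 shuttle enzymes, and those of Mdh1 held 2 matches, of Gpd1l 1, and of Mdh2 and Gpd2 0. A match describes these letters only.

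Got1 was measured at 31.7, 43.0 and 43.1 RPKM in WT and at 25.9, 31.2 and 34.3 RPKM in Ucp1-KO cultures. WT replicates 11 and 12 were above all Ucp1-KO cultures, and WT replicate 10 was between them. The Ucp1-KO mean of 30.5 ± 4.24 RPKM was 77.6% of the WT mean of 39.3 ± 6.54 RPKM (SD, n = 3). The log2 fold change of -0.35 (SE 0.16, 95% confidence interval -0.73 to 0.02) had an adjusted p of 0.868 in limma and an exact permutation p of 0.2.

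Got2 followed the same order of cultures, with 21.8, 25.3 and 26.1 RPKM in WT and 17.5, 20.4 and 21.8 RPKM in Ucp1-KO. WT replicate 10 and Ucp1-KO replicate 15 were nearly equal, and here the genotypes overlapped by these cultures alone. The Ucp1-KO mean of 19.9 ± 2.18 RPKM was 81.5% of the WT mean of 24.4 ± 2.33 RPKM (SD, n = 3). The log2 fold change of -0.28 (SE 0.12, 95% confidence interval -0.56 to -0.0049) had an unadjusted p of 0.0470, an adjusted p of 0.868 in limma and an exact permutation p of 0.2. The unadjusted p of Got2 was 0.0524 with no minimum abundance and 0.0583 in limma-voom on recovered reads, and 0.0845 to 0.150 without WT replicate 11, WT replicate 12, Ucp1-KO replicate 13 or Ucp1-KO replicate 14. Stromal markers also had lower mean log2 levels in Ucp1-KO, as given above.

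Got1 to Got2 was 1.46, 1.70 and 1.65 in WT and 1.48, 1.53 and 1.57 in Ucp1-KO cultures. The ratio varied least of the 4 (log2 mean 0.64 ± 0.09, SD, n = 6), and its genotype difference was -0.07 on the log2 scale with an exact permutation p of 0.5. Got1 was above Got2 in 6 of 6 cultures (adjusted p = 0.03125, exact sign-flip), but below it in 6 of 6, with ratios of 0.847 to 0.985, when levels were taken per sequence that reads of 50 bases can identify. Of the 2481 stretches of 50 bases in the Got2 transcript, 1041 also occur in transcripts of 2 genes elsewhere, Gm10874 and Got2-ps1, so that 58.0% were found nowhere else. Since the authors assigned uniquely identified reads only, the level of Got2 is uncertain in this respect. For the other 6 enzymes, no stretch occurred in a gene elsewhere. Part of the Gpd1 transcript (290 of 2812 stretches) and of the Gpd2 transcript (78) is shared with Gm16537 and A930012O16Rik, which overlap them in the genome.

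The spread between cultures of one genotype differed widely among the shuttle enzymes. It is given as the pooled SD of log2(RPKM + 1) within the genotypes, beside the 6895 transcripts averaging 10 RPKM or more, whose median was 0.15. For Gpd1 it was 0.73, larger than in 98.5% of these transcripts, with up to 2.29-fold between WT and up to 2.95-fold between Ucp1-KO cultures. Gpd2 followed with 0.30 (larger than in 85.5%) and Got1 with 0.22 (73.4%). Got2 with 0.14 (48.1%), Mdh1 with 0.13 (39.6%), Gpd1l with 0.10 (23.9%) and Mdh2 with 0.06 (6.18%) were below the median. Without WT replicate 10 and Ucp1-KO replicate 13, chosen after the values were seen, the spread of Gpd1 was 0.29.

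**Figure D3:**
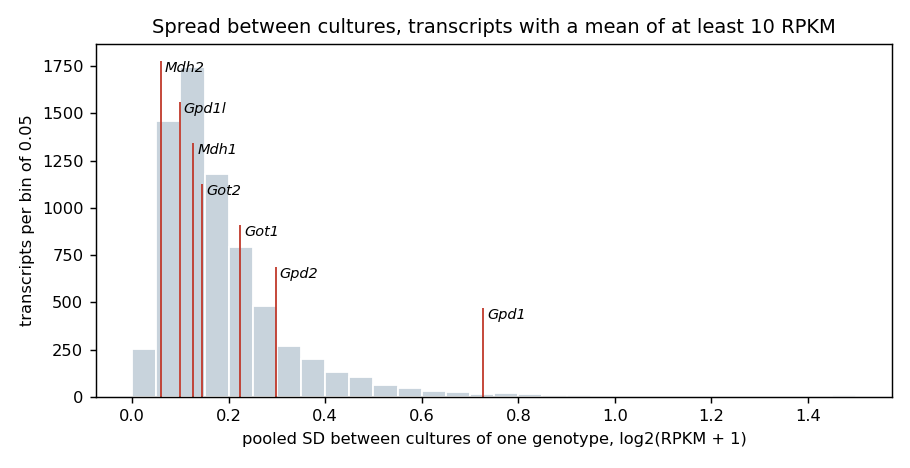
Number of transcripts (bars, 6895 averaging 10 RPKM or more) by the pooled SD of log2(RPKM + 1) between cultures of one genotype, with red lines at the shuttle enzymes. The height of a line carries no value, and Gpd1l has a mean below 10 RPKM and is drawn for comparison. Gpd1 at 0.73 lies in the upper tail and Mdh2 at 0.06 near the lower end.

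WT replicate 10 and Ucp1-KO replicate 13 were the lowest pair of cultures for 4580 of the 16865 transcripts tested (27.2%), the most frequent lowest pair of all. They were the highest pair for 1768 (10.5%), less often than WT replicates 11 and 12 (18.3%) and Ucp1-KO replicates 14 and 15 (11.9%). Both were the highest for Gpd1 and, by a small margin, the lowest for Gpd1l. They were also the highest pair for 3 of the 6 adipocyte markers, with 1480 and 1714 RPKM for Adipoq (others 1135 to 1410), 451 and 456 RPKM for Plin1 (others 390 to 427) and 510 and 523 RPKM for Lipe (others 461 to 473), and not for Fabp4, Pparg and Cebpa. The 7 brown adipocyte markers other than Ucp1 summed to 1771 and 1637 RPKM in this pair, the lowest sums (others 1810 to 2669). Of single brown adipocyte markers, Cox8b was lowest in this pair (216 and 251 RPKM), and Cpt1b was highest in WT replicate 10 (258 RPKM). The part of these markers in the level of Gpd1 was not tested. Without both cultures, the Gpd1 log2 fold change was 0.36, of Gpd2 0.53, of Mdh1 0.28, of Mdh2 0.00063, of Got1 -0.39 and of Got2 -0.28. Both cultures were left out for their Gpd1 level, so nothing is read from Gpd1 here. Then there was no overlap between genotypes for Gpd2, Mdh1, Got1 and Got2, beside 49.4% of all transcripts. With all 6 cultures, these genes overlapped only through WT replicate 10 (Gpd2, Got1, Got2) or Ucp1-KO replicate 13 (Mdh1). Leaving both out therefore fixed this separation in advance. At an unadjusted p under 0.05 were then 2 enzymes higher (Gpd2 and Mdh1, beside 4.69% of all transcripts) and 2 lower (Got1 and Got2, beside 8.96%), together 4 of 7 beside 13.6%. The adjusted p of these 4 enzymes was 0.325 to 0.351 in limma with 2 cultures per genotype. For the same reason, no excess is read from these counts.

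The gene profiles most like that of Gpd1 were sought among 5039 genes averaging 10 RPKM or more, by the root-mean-square difference of log2(RPKM + 1) after subtraction of each gene's own mean over the 6 cultures. The nearest was Deptor, a binding protein and inhibitor of mTOR, with a difference of 0.14 where the median gene was at 0.66. It was measured at 27.8, 11.2 and 15.9 RPKM in WT and at 42.3, 19.9 and 15.9 RPKM in Ucp1-KO cultures. Next were Aspa (0.15), the aspartoacylase that splits N-acetylaspartate into aspartate and acetate, and 4931408D14Rik (0.16). Aspa was measured at 58.8, 22.6 and 26.7 RPKM in WT and at 74.3, 39.3 and 33.8 RPKM in Ucp1-KO cultures. All 3 were highest in Ucp1-KO replicate 13 and next highest in WT replicate 10, as Gpd1 was. The next gene was Gk, listed as Gyk, the kinase that makes glycerol-3-phosphate from glycerol (0.18), which is named here because it shares a product with Gpd1 and was chosen after its values were seen. Its levels were 40.4, 21.4 and 18.9 RPKM in WT and 50.3, 23.4 and 19.3 RPKM in Ucp1-KO cultures, with a log2 fold change of 0.15 that was -0.25 without Ucp1-KO replicate 13.

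**Figure D4:**
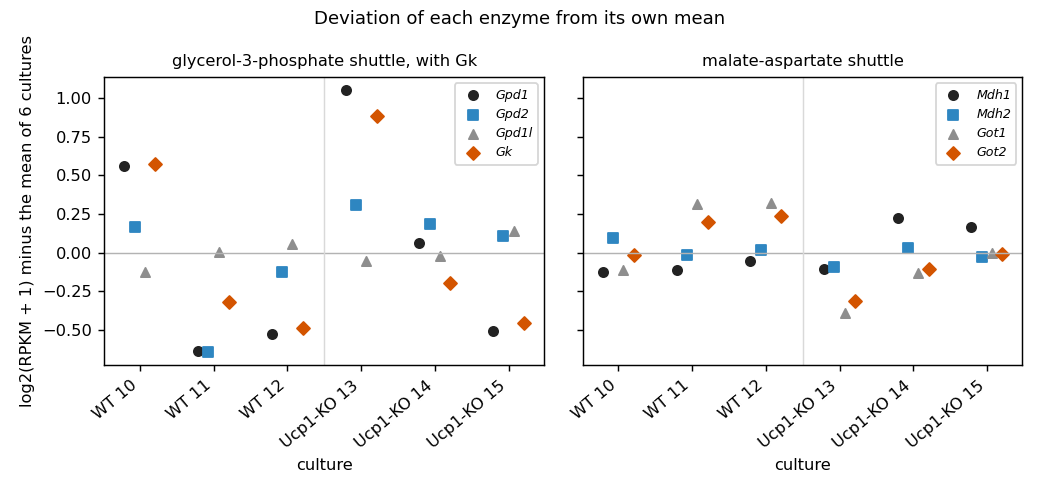
Deviation of log2(RPKM + 1) from the gene's own mean over the 6 cultures, for the glycerol-3-phosphate shuttle with Gk (left) and the malate-aspartate shuttle (right), with 1 symbol per gene and culture. Gpd1 and Gk are high in WT replicate 10 and Ucp1-KO replicate 13 and Gpd1l is not, while Got1 and Got2 are lowest in Ucp1-KO replicate 13.

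For Got2, the one enzyme with an unadjusted p under 0.05, the most similar profiles were those of Aars, Git1 and F11r, at differences of 0.04 each, where the median gene was at 0.22. Aars encodes alanyl-tRNA synthetase and was measured at 39.1, 48.2 and 48.2 RPKM in WT and at 30.9, 38.04 and 40.3 RPKM in Ucp1-KO cultures. Git1 encodes an ArfGAP scaffold protein and F11r a tight junction adhesion molecule. Like Got2, Aars was lowest in Ucp1-KO replicate 13, and only WT replicate 10 was within the range of the Ucp1-KO cultures.

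The wider pathway was described by 32 other genes, 29 of which passed the minimum abundance. Of these, 14 had a higher and 15 a lower mean log2 level in Ucp1-KO, with a median log2 fold change of -0.04, and 0 passed at an adjusted p under 0.05. At an unadjusted p under 0.05 were 2 higher (Aqp7, Pck1) and 1 lower (Slc16a1), beside 2.3% and 3.24% of all transcripts tested. Each of these was above 0.05 in some alternative, Pck1 at 0.0636 with no minimum abundance, Aqp7 at 0.0567 with median-of-ratios scaling and Slc16a1 at 0.0539 in limma-voom. No overlap between genotypes was found for 1 gene higher (Aqp7) and 3 lower in Ucp1-KO (Slc16a1, Slc16a3, Glud1), beside 6.04% and 5.15% of all transcripts.

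The malate-aspartate shuttle needs carriers for 2-oxoglutarate with malate and for aspartate with glutamate. The 2-oxoglutarate carrier Slc25a11 was measured at 100, 112 and 117 RPKM in WT and at 92.6, 108 and 109 RPKM in Ucp1-KO cultures. The genotypes overlapped (log2 fold change -0.09, unadjusted p = 0.416 in limma). The aspartate-glutamate carriers were below all 7 enzymes in every culture. Slc25a12 was measured at 2.80, 3.03 and 2.51 RPKM in WT and at 3.47, 2.94 and 1.71 RPKM in Ucp1-KO cultures (log2 fold change -0.06), and Slc25a13 at 0.107 to 0.539 RPKM over the 6 cultures, under the minimum abundance. Slc25a12 was highest in Ucp1-KO replicate 13 and lowest in replicate 15, and its direction turned to 0.15 without the latter.

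Of the relatives of the shuttle enzymes, Mdh1b was under the minimum abundance. Got1l1, a gene similar to Got1, was measured at 2.68, 10.6 and 10.3 RPKM in WT and at 3.11, 10.3 and 10.6 RPKM in Ucp1-KO cultures, low in WT replicate 10 and Ucp1-KO replicate 13 alike. Its log2 fold change of 0.05 was -0.50 without WT replicate 10 and 0.54 without Ucp1-KO replicate 13.

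Of genes for cytosolic NADH and lactate, 4 of 5 were tested, 2 with a higher and 2 with a lower mean log2 level in Ucp1-KO. The RefSeq row of Gapdh, the glycolytic source of cytosolic NADH, was listed at 0 in all 6 cultures. In the Gapdh transcript, 17.5% of stretches of 50 bases were found nowhere else, the others being shared with transcripts of 222 genes. The cause of the value of 0 was not tested, and no level is given for Gapdh. Ldhb, a lactate dehydrogenase subunit, had the highest log2 fold change of the list with 0.13. The monocarboxylate transporter Slc16a1, which carries lactate and pyruvate, was measured at 104, 101 and 106 RPKM in WT and at 76.5, 90.1 and 90.3 RPKM in Ucp1-KO cultures. Every Ucp1-KO culture was below every WT culture (log2 fold change -0.27, unadjusted p = 0.0263, adjusted p = 0.868 in limma). Slc16a3, a transporter of the same family, was also lower in each Ucp1-KO culture, with 30.1, 45.3 and 31.7 RPKM in WT and 27.4, 29.5 and 23.3 RPKM in Ucp1-KO (log2 fold change -0.39, unadjusted p = 0.0606).

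Of 8 genes that supply or use glycerol-3-phosphate, 5 had a higher and 3 a lower mean log2 level in Ucp1-KO, with a median log2 fold change of 0.15. The glycerol channel Aqp7 was measured at 55.3, 48.9 and 55.2 RPKM in WT and at 65.0, 61.4 and 61.4 RPKM in Ucp1-KO cultures. All Ucp1-KO cultures were above all WT cultures (log2 fold change 0.23, unadjusted p = 0.0326, adjusted p = 0.868 in limma). Gpam, the mitochondrial acyltransferase that places the first fatty acid on glycerol-3-phosphate, had the highest log2 fold change with 0.29, and Tpi1, the triose phosphate isomerase, the lowest with -0.16. Both overlapped between the genotypes.

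Of 14 genes of malate, oxaloacetate, aspartate and glutamate metabolism, 6 had a higher and 8 a lower mean log2 level in Ucp1-KO, with a median log2 fold change of -0.04. Pck1, the cytosolic phosphoenolpyruvate carboxykinase of glyceroneogenesis, was measured at 76.2, 91.6 and 88.6 RPKM in WT and at 90.3, 121 and 118 RPKM in Ucp1-KO cultures. Ucp1-KO replicate 13 lay within the WT range and the other two above it (log2 fold change 0.35, unadjusted p = 0.0424, adjusted p = 0.868 in limma). Me2, a mitochondrial malic enzyme, had the lowest log2 fold change of the list with -0.24, at 6.23, 11.7 and 12.2 RPKM in WT and 6.68, 9.43 and 8.13 RPKM in Ucp1-KO cultures. Its lowest levels were those of WT replicate 10 and Ucp1-KO replicate 13, and the genotypes overlapped.

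**Figure D5:**
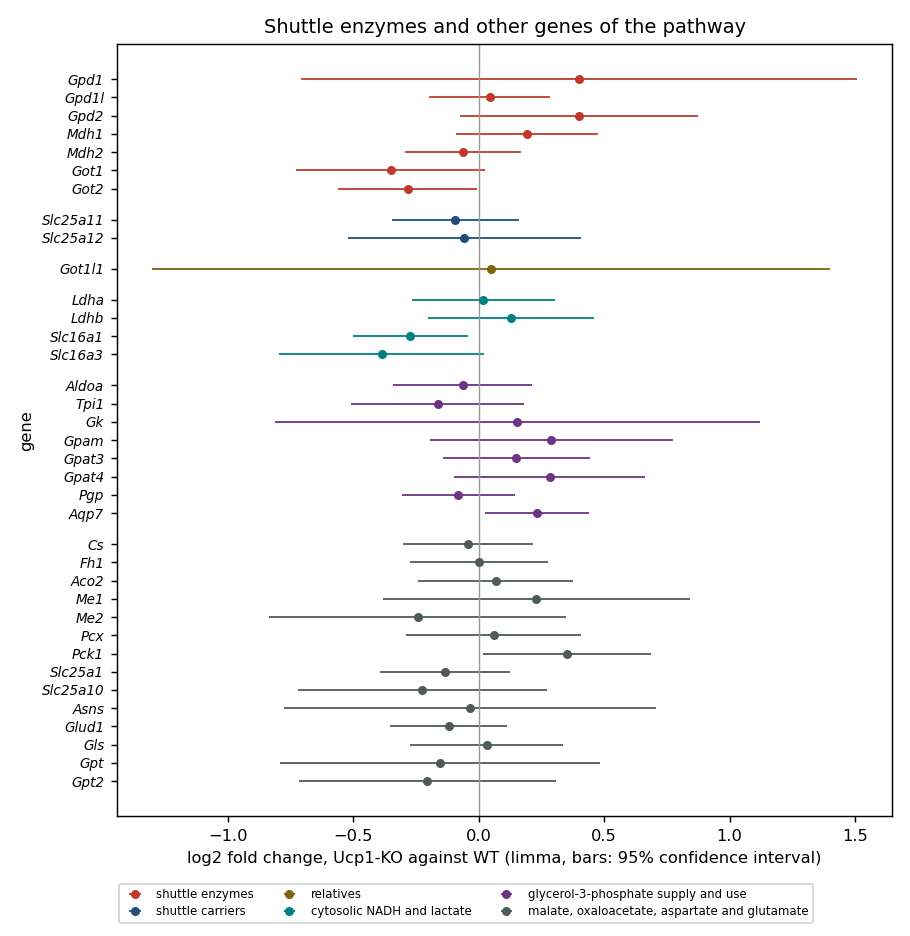
Log2 fold change of Ucp1-KO against WT on log2(RPKM + 1) with its 95% confidence interval from limma, for the 7 shuttle enzymes and 29 other genes of the pathway, coloured by list. The intervals are unadjusted and exclude 0 for Got2, Slc16a1, Aqp7 and Pck1, while no gene has an adjusted p under 0.05. The intervals of Got1l1, Gpd1 and Gk are the widest.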

How the data were processed

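Single reads of 50 bases were obtained from 6 cultures. After mapping to build 38 of the mouse genome, the authors counted the uniquely identified reads of each known transcript (Genomatix) and deposited them as RPKM. The deposited table held 168326 rows, 28890 of them RefSeq transcripts (NM or NR), which were used. Genotype and replicate came from the labels, and replicate numbers are not shared between genotypes.

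Genotypes were compared over transcripts averaging 0.5 RPKM or more (16865, from 12259 genes) by limma 3.58.1 in R 4.3.3 (empirical Bayes with trend, log2(RPKM + 1), no covariates, two-sided), adjusted by Benjamini-Hochberg with a threshold of 0.05. Single ratios were compared by exact permutation tests with scipy 1.17.1 in Python 3.11.15, with numpy 2.4.6, pandas 2.3.3 and matplotlib 3.10.9.

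Library totals were recovered from RPKM steps with GENCODE M21 transcript lengths. With them, 16862 of the tested rows (99.98%) gave whole reads in every culture, within 0.05 of a read. The 3 others were left out of limma-voom on these reads, which called 0 transcripts at the adjusted and 925 at the unadjusted threshold. Without molecular identifiers, PCR copies count as reads, so read numbers show counting error only.

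The enzymes and the lists were chosen with earlier results of these data known. All enzymes and carriers are named, and of the other lists the largest change in each direction and genes with an unadjusted p under 0.05, beside the 3 genes most like Gpd1 and Got2. Stretches of 50 bases were compared with all GENCODE M21 transcripts. Coordinates and upstream sequences are from RefSeq (GRCm38.p6). Alternatives were 0.1 RPKM added, no minimum abundance, 1 transcript per gene, summed rows, all annotations, median-of-ratios scaling, limma-voom and leaving out each culture. Levels per unique stretch, the highest row of all annotations, and leaving out WT replicate 10 with Ucp1-KO replicate 13 were added after seeing the data.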

Additional observations from a re-analysis of the deposited data

How the results depend on the processing

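The labels name no pairs of WT and Ucp1-KO cultures, and no paired analysis was run. Whether cultures of both genotypes, such as WT replicate 10 and Ucp1-KO replicate 13, shared a preparation is not known from the labels. The fold changes of the 7 enzymes kept their direction and stayed above the adjusted threshold with 0.1 RPKM added, no minimum abundance, 1 transcript per gene, summed rows, all annotations, median-of-ratios scaling and limma-voom. Leaving out each culture, the log2 fold change was -0.024 to 0.78 for Gpd1, -0.014 to 0.085 for Gpd1l, 0.18 to 0.58 for Gpd2, 0.13 to 0.29 for Mdh1, -0.092 to -0.031 for Mdh2, -0.49 to -0.24 for Got1 and -0.36 to -0.20 for Got2. Among the other genes it was -0.21 to 0.15 for Slc25a12, -0.50 to 0.54 for Got1l1 and -0.25 to 0.48 for Gk. Without a change of direction, it was 0.15 to 0.49 for Gpam, -0.24 to -0.046 for Tpi1, 0.035 to 0.28 for Ldhb and -0.52 to -0.091 for Me2. The genotype difference of the log2 ratio was -0.38 to 0.30 for Gpd1 to Gpd2, -0.11 to 0.79 for Gpd1 to Gpd1l, 0.21 to 0.32 for Mdh1 to Mdh2 and -0.13 to -0.02 for Got1 to Got2.

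Over 5 cultures the log2 ratios were 4.99 to 5.26 (Gpd1 to Gpd2), 7.18 to 7.53 (Gpd1 to Gpd1l), -0.31 to -0.22 (Mdh1 to Mdh2) and 0.62 to 0.66 (Got1 to Got2), where the exact sign-flip test cannot go below 0.0625. With summed rows, Gpd1 to Gpd2 was 4.15, since Gpd2 has 2 nearly equal rows, whose sum may count the same reads 2 times. Without WT replicate 10 and Ucp1-KO replicate 13 they were 4.85, 6.95, -0.21 and 0.69, where it cannot go below 0.125, the log2 fold change of Mdh2 was 0.00063, that of Got1l1 -0.0049, and the spread of Gpd1 was 0.29, against 0.59 to 0.83 without 1 culture. Mdh1 to Mdh2 was 0.35 with the highest row of all annotations and Got1 to Got2 -0.14 per unique stretch, which moved 2 enzymes in the order each.

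At the adjusted threshold 22 transcripts passed with no minimum abundance and 0 without any 1 culture. At the unadjusted one, 1456 of 28890 tested passed with no minimum abundance (754 higher, 702 lower) and 5193 of 95358 tested with all annotations (2582 higher, 2611 lower), beside 935 of 16865. Without WT replicate 10 and Ucp1-KO replicate 13, the count was 2302 of 16865 (791 higher, 1511 lower). Leaving out 1 culture gave 317 (without WT replicate 11) to 1754 (without WT replicate 10), with 165 to 654 higher and 152 to 1254 lower. The cause of the changes with cultures left out was not tested. Of the 7 enzymes 3 to 4, and of the 29 other genes 12 to 14, were then higher in Ucp1-KO. Libraries held at least 14989604 reads and each enzyme at least 597 reads per culture, and counting error was not set against the spread between cultures.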
